A study of Mus musculus with 4 samples.

Results

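The miR-200 family and miR-205 are microRNAs (miRNAs) of epithelial cells, and their levels were followed here in mouse embryonic stem cells treated with an siRNA against Lin28a. The members were taken by name from the array: the guide strands mmu-miR-200b, mmu-miR-200a and mmu-miR-429 of 1 genomic cluster with the opposite strands mmu-miR-200b* and mmu-miR-200a*, mmu-miR-200c and mmu-miR-141 of a second cluster, and mmu-miR-205, which is encoded alone. All 8 were among the 577 miRNA names on the array, and 6 were bright enough to be tested. RNA came from A3-1 cells, a mouse embryonic stem cell line grown with serum and the cytokine LIF, which maintains the undifferentiated state. The siLin28a group (2 replicates) received an siRNA against Lin28a and the siGFP group (2 replicates) an siRNA against GFP, which served as the control, and total RNA was taken after 48 h in both. Each replicate was hybridised to 1 single-colour Agilent miRNA array from 100 ng of RNA. The labels do not say whether the replicates are separate cultures, so the p-values cover only the spread seen between these 4 samples, possibly a technical one.

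A mature miRNA guides the silencing complex to messenger RNAs that pair with its seed, bases 2 to 8 counted from the 5′ end. The miR-200 family is known for repressing Zeb1 and Zeb2, transcription factors that switch off epithelial genes such as E-cadherin, and both factors in turn repress the miR-200 genes, so that the miRNAs and the factors hold each other down at the border between epithelial and mesenchymal states. miR-205, with an unrelated seed, also targets Zeb1 and Zeb2 and is abundant in stratified epithelia. LIN28A, the protein product of the gene targeted by the siRNA, is an RNA-binding protein that holds back the maturation of let-7 precursors, which it recognises partly through a GGAG motif in the loop of the hairpin.

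The mature sequences are shown because the members fall into groups by their seed. They are given 5′ to 3′ from RefSeq (build GRCm38.p6, in which all 8 members were matched by name), with the seed in capitals.
mmu-miR-200b: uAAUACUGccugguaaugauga
mmu-miR-200c: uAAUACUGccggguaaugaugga
mmu-miR-429: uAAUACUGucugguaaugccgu
mmu-miR-200a: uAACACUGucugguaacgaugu
mmu-miR-141: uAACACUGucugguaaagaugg
mmu-miR-205: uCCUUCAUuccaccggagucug
mmu-miR-200b*: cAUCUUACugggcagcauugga
mmu-miR-200a*: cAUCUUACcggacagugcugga
miR-200b, miR-200c and miR-429 share the seed AAUACUG, which these 3 alone carried in the RefSeq table. miR-200a and miR-141 share AACACUG, also carried by no other mature miRNA of the table, and miR-205 was the only one with CCUUCAU. Within the seed the groups differ at 1 position: aligned from the 5′ end, miR-200b and miR-200a differ by U4C there and by C9U, U17C and A22U outside it. Each seed group has members from both clusters, and those copies are close: miR-200b and miR-200c differ by U11G and A22G with 1 extra base at the end of miR-200c, and miR-200a and miR-141 by C17A and U22G.

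Each guide strand was measured by 2 probes of different length, whose targets cover the 3′ side of the miRNA and not its whole seed. In the coordinates of build mm9 that the files give, the longest target of miR-200b lay at chr4:155429794-155429810, that of miR-200a at chr4:155429020-155429037 and that of miR-429 at chr4:155428025-155428043. The targets on chromosome 6 were chr6:124668342-124668357 for miR-200c and chr6:124667935-124667951 for miR-141, and miR-205 was probed at chr1:195333697-195333712. All lie on the minus strand. The targets of miR-200b and miR-200a are 774 bases apart, those of miR-200a and miR-429 995, and those of miR-200c and miR-141 407. By the RefSeq annotation the chromosome 4 cluster lies inside the long non-coding RNA gene Gm13648, the chromosome 6 pair lies between Phb2 and Ptpn6 and inside no listed gene, and Mir205 lies inside its long non-coding host gene Mir205hg. The sequences of miR-200b and miR-200c differ at few bases, as do those of miR-200a and miR-141. Cross-hybridisation of labelled RNA to the probes of the other copy is therefore possible in both pairs, each of which spans the 2 clusters, and was not tested.

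All 4 arrays were read from 1 slide. Spots well above background made up 34.5% and 38.8% of the siLin28a arrays and 32.5% and 32.9% of the siGFP arrays, and the 75th percentile of signal used for scaling was 248 and 265 against 226 and 220 intensity units. A level below is a log2 intensity relative to that percentile, averaged over the probes of a miRNA, so 0 is a bright probe and negative values are dimmer. Precision is limited by there being 2 arrays a group. The 12 miRNAs listed for the cluster of miR-290 to miR-295, the main miRNA cluster of mouse embryonic stem cells, were all well above background on all 4 arrays, with a median difference of -0.06 on the log2 scale between siLin28a and siGFP.

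All 6 guide strands had a higher mean level with siLin28a than with siGFP, by 0.19 to 0.50 on the log2 scale, or 1.14-fold to 1.41-fold, and none passed the test. The order of the differences, from the largest, was miR-200c, miR-141, miR-205, miR-200a, miR-200b and miR-429. With limma and Benjamini-Hochberg adjustment over 231 tested miRNAs, 0 of 6 members were called at an adjusted p below 0.05, where 0.866% of all tested miRNAs (2 of 231) were called higher. At an unadjusted p below 0.05, 1 of 6 members was higher, miR-200c, beside a background of 13.4% (31 of 231). That count depended on the processing. It was 4 of 6 with a replicate block, without scaling between arrays or with no filter on dim probes, and 2 of 6 with eBayes without a trend. With the brightest probe of each miRNA, quantile normalization, the percentile over all probes or normexp in either form it was 0 of 6. With no filter, 337 of 577 miRNAs had no spread because their values sat at the floor, which enters the errors of every miRNA in that fit. The share of all tested miRNAs was counted only for the setting given here, so the counts under other processing lack a background. Both siLin28a arrays lay above both siGFP arrays for 5 of 6 members, beside 30.7% of all tested miRNAs (71 of 231) in that direction. Another 71 of the tested miRNAs were lower without overlap.

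The median difference of the 6 members was 0.34 and their mean 0.33, while the median over all 231 tested miRNAs was 0.00. Of tested miRNAs outside the list, 82 had a mean level within the members' range, and their median difference was -0.03, with 20 higher and 23 lower without overlap. Ranked by difference among the 231, the members held places 28, 39, 42, 48, 59 and 69. The sign was the same in every member at the setting given here, but with another background correction (normexp) 4 of 6 turned negative, miR-200a at -0.0227, miR-200b at -0.0833, miR-200c at -0.0334 and miR-429 at -0.113. In that correction 4 spots on the array of siGFP replicate 2 lay below -100 intensity units, all 4 flagged for an outlying local background. With every spot flagged as an outlier left out of the correction on all 4 arrays, all 6 were above 0. Their differences were smaller than at the setting given here, with a mean of 0.12 against 0.33 and miR-429 at 0.023. There 2 of 6 were higher without overlap, beside 49 of 231 tested miRNAs. Both forms of normexp added an offset of 50 intensity units to every spot. By arithmetic such an offset shrinks log2 differences, most for dim probes. How much of the change came from the offset was not tested. In RNA from a whole culture, a larger number of cells with a miRNA and more of it per cell cannot be told apart.

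**Figure D1:**
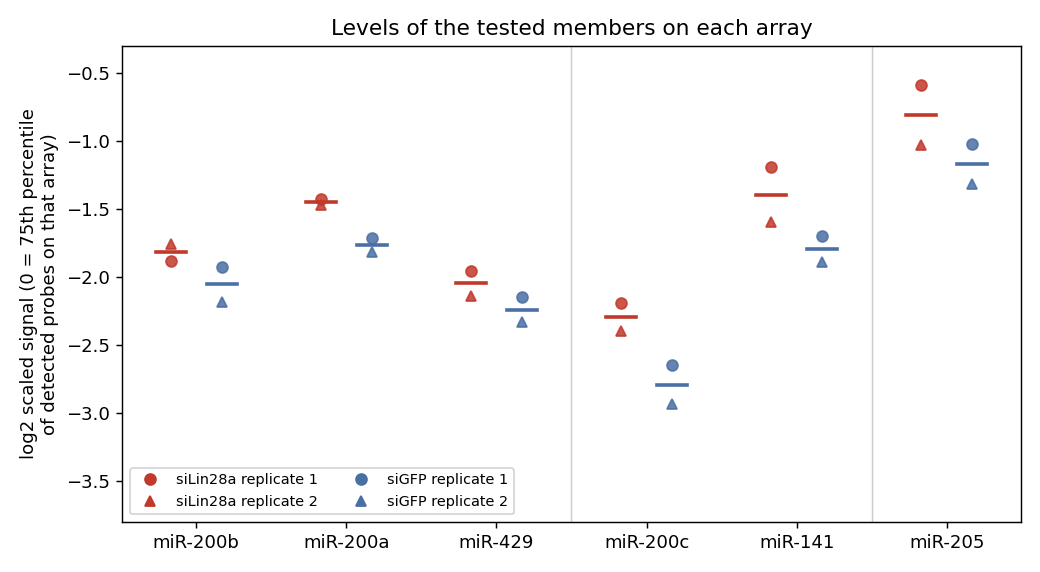
Level of each tested guide strand on each of the 4 arrays, as log2 intensity relative to the 75th percentile, with siLin28a left of siGFP, a circle for replicate 1, a triangle for replicate 2 and a bar at the group mean. The siLin28a points lie above the siGFP points for miR-200b, miR-200a, miR-429, miR-200c and miR-141, and overlap for miR-205.

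In the chromosome 4 cluster, the level of miR-200a, one of the guides with the seed AACACUG, was -1.43 and -1.47 in siLin28a replicates 1 and 2, against -1.72 and -1.82 in siGFP replicates 1 and 2. The groups were separate by 0.24, and the spread within each was small. The mean was -1.45 ± 0.03 with siLin28a and -1.77 ± 0.07 with siGFP (SD, n = 2 each), a difference of 0.32 (SE 0.12, 95% interval -0.02 to 0.65, limma adjusted p = 0.204). miR-200b, the first miRNA of the cluster, stood at -1.88 and -1.75 in the siLin28a replicates, against -1.93 and -2.18 in the siGFP replicates. Its groups were separate by 0.05, and siLin28a replicate 1 and siGFP replicate 1 were nearly level. The difference of 0.24 (SE 0.15, 95% interval -0.20 to 0.68, limma adjusted p = 0.370) was 0.05 between the replicates numbered 1 and 0.43 between those numbered 2. miR-429, which shares the seed of miR-200b, measured -1.96 and -2.14 with siLin28a, against -2.15 and -2.33 with siGFP. The lower siLin28a array and the higher siGFP array were 0.01 apart, so the groups barely separated. Its difference of 0.19 (SE 0.14, 95% interval -0.21 to 0.60, limma adjusted p = 0.402) was the smallest among the 6.

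In the chromosome 6 cluster, miR-200c, whose repression of Zeb1 and Zeb2 is among the best known of the family, was at -2.19 and -2.40 in the siLin28a replicates, against -2.65 and -2.94 in the siGFP replicates. Every siLin28a value lay above every siGFP value, with a gap of 0.25. The mean was -2.29 ± 0.15 with siLin28a and -2.79 ± 0.20 with siGFP (SD, n = 2 each), and the difference of 0.50 (SE 0.15, 95% interval 0.05 to 0.94) had an unadjusted limma p of 0.0367 and an adjusted p of 0.169. miR-141, transcribed with miR-200c, measured -1.19 and -1.60 with siLin28a, against -1.70 and -1.89 with siGFP. The replicates of siLin28a lay further apart (0.41) than the groups at their closest (0.10). Its difference was 0.40 (SE 0.20, 95% interval -0.17 to 0.97, limma adjusted p = 0.279).

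miR-205, which belongs to neither cluster and shares no seed with the family, was at -0.59 and -1.03 in the siLin28a replicates, against -1.02 and -1.32 in the siGFP replicates. siLin28a replicate 2 lay 0.01 below siGFP replicate 1, so the groups overlapped. The difference of 0.36 (SE 0.22, 95% interval -0.27 to 0.99, limma adjusted p = 0.351) was of the size of those in the clusters but had the widest interval among the 6 members. Replicate 1 lay above replicate 2 in all 6 members with siGFP and in 5 of 6 with siLin28a, miR-200b being the exception. Replicate number goes with position on the slide, and so does group. The siGFP arrays were at positions 1 and 3 and the siLin28a arrays at positions 2 and 4. An effect of position on the differences was not tested. With replicate as a block in the fit the differences were the same by construction, the SE was 0.10 for miR-205 and 0.11 for miR-141, and no member had an adjusted p below 0.05.

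**Figure D2:**
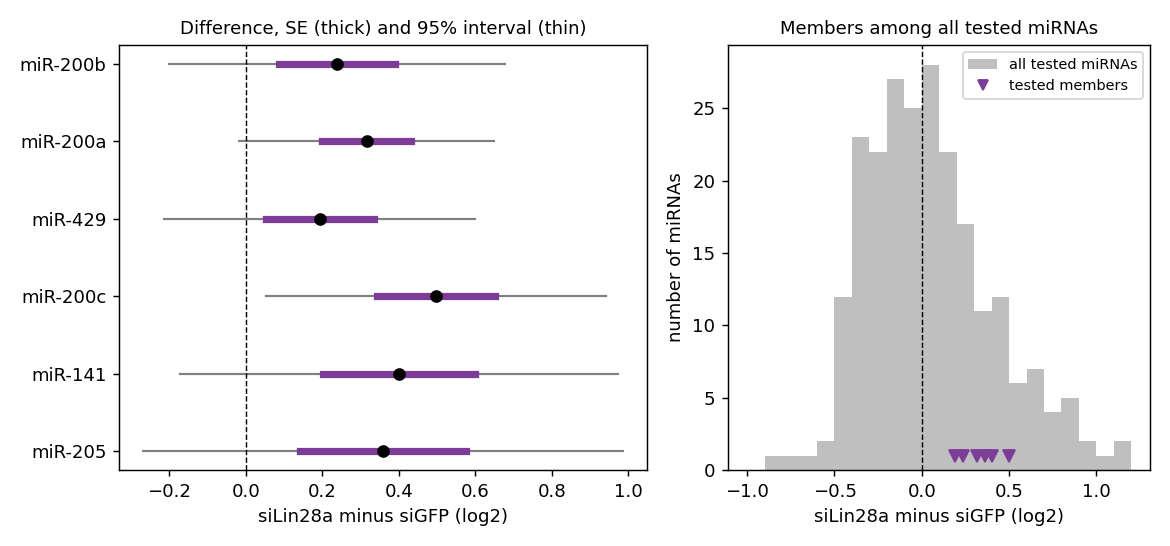
Difference between siLin28a and siGFP on the log2 scale for each tested guide strand (left; thick line SE, thin line 95% interval from limma), and the members as triangles on a histogram of the differences of all 231 tested miRNAs (right). The points run from 0.19 for miR-429 to 0.50 for miR-200c, and the interval of miR-200c is the 1 that lies wholly above 0.

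The opposite strands of the chromosome 4 hairpins, which are mostly degraded after the guide is loaded, were not measurable. mmu-miR-200a* had 3 probes and mmu-miR-200b* had 4, and none was well above background on the 2 arrays of either group. Their probe signals ran from -2.84 to 9.64 intensity units, while kept probes of the guides ran from 20.1 to 194. The total gene signal, a sum per miRNA made by the scanner software, was -0.52 and 0.91 for miR-200a* with siLin28a, against -1.64 and -0.32 with siGFP. For miR-200b* it was 3.96 and 9.07 with siLin28a, against 5.88 and 6.76 with siGFP. The software called neither strand detected on any array, and no difference can be read from them. The opposite strands of the chromosome 6 cluster, miR-200c* and miR-141*, were likewise detected on 0 arrays.

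Both probes of every guide gave a difference of the same sign. They were 0.24 and 0.39 for miR-200a, where the shorter target gave the larger value, and 0.23 and 0.25 for miR-200b. For miR-429 both were 0.19. The probes of miR-200c, which carried the largest difference, gave 0.52 and 0.48. On siGFP replicate 2 the dimmer of them read 20.1 intensity units, under the limit of 20.8 to which low signals were raised, so the lowest miR-200c value is a bound and the difference of that probe is understated. The probes of miR-141 gave 0.41 and 0.39 and those of miR-205 0.40 and 0.32. Each kept probe had 7 to 10 usable spots per array, with a spot-to-spot coefficient of variation between 1.60% and 15.4% (median 7.02%).

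**Figure D3:**
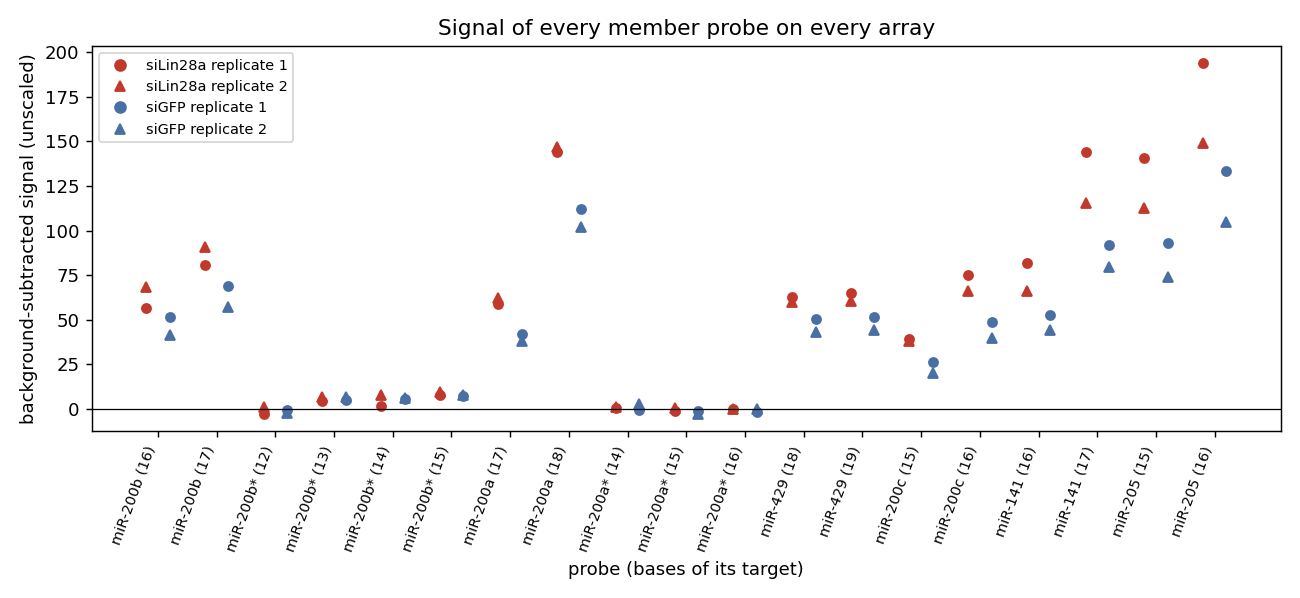
Background-subtracted signal of all 19 probes of the 8 members on each array in intensity units, siLin28a left of siGFP, with the target length of a probe in parentheses. Probes of the guides lie between 20.1 and 194 units and those of miR-200a* and miR-200b* between -2.84 and 9.64.

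The unscaled total gene signals, which no floor has touched, gave larger ratios, since the siLin28a arrays were brighter as a whole. For miR-200c they were 81.6 and 75.6 intensity units with siLin28a, against 52.3 and 43.5 with siGFP. That is a ratio of 1.64. For miR-141 the signals were 161 and 132 with siLin28a, against 100 and 90.1 with siGFP, a ratio of 1.54, and for miR-205 they were 238 and 190 against 157 and 130, a ratio of 1.49. In the chromosome 4 cluster the ratio was 1.42 for miR-200a, with 145 and 151 against 107 and 102 units, 1.37 for miR-200b and 1.33 for miR-429. No siLin28a signal fell among the siGFP signals for any guide on this unscaled quantity, for which the share of all miRNAs was not counted. For probe signals without scaling between arrays, 112 of 231 tested miRNAs were higher without overlap and 25 lower, so such separation was common.

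The clusters can be compared within each array, which cancels any scaling factor. The miR-200c-141 guides averaged -1.69 and -2.00 with siLin28a, against -2.17 and -2.41 with siGFP, and the miR-200b-200a-429 guides averaged -1.75 and -1.79, against -1.93 and -2.11. The difference between siLin28a and siGFP was thus 0.45 for the chromosome 6 cluster and 0.25 for the chromosome 4 cluster. The first cluster minus the second was 0.06 and -0.21 with siLin28a, against -0.24 and -0.30 with siGFP, and siLin28a lay higher by 0.20 without overlap. Probes differ in brightness per molecule, so only the shift of this contrast between the groups can be read, not its level. An exact permutation test of 2 against 2 arrays cannot give a p below 2 of 6 possible splits, and the contrast is given as a description. It rests mainly on siLin28a replicate 1: it was 0.31 between the replicates numbered 1 and 0.09 between those numbered 2, and 0.063 without siLin28a replicate 1 against 0.337 without siLin28a replicate 2.

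The seed groups showed no such separation. Guides with the seed AAUACUG differed between siLin28a and siGFP by a mean of 0.31 and those with AACACUG by 0.36. The first minus the second was -0.70 and -0.56 with siLin28a, against -0.53 and -0.63 with siGFP. The arrays overlapped, and the difference was -0.05, with the opposite sign between the replicates numbered 1 (-0.16) and those numbered 2 (0.07). Leaving out 1 array at a time moved it between -0.117 and 0.0193. Among pairs that share a seed across clusters, miR-200c minus miR-200b was higher with siLin28a by 0.26 without overlap, and miR-141 minus miR-200a by 0.08 with overlap. Within clusters, miR-200a minus miR-200b differed by 0.08 and miR-141 minus miR-200c by -0.10, both with overlap.

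**Figure D4:**
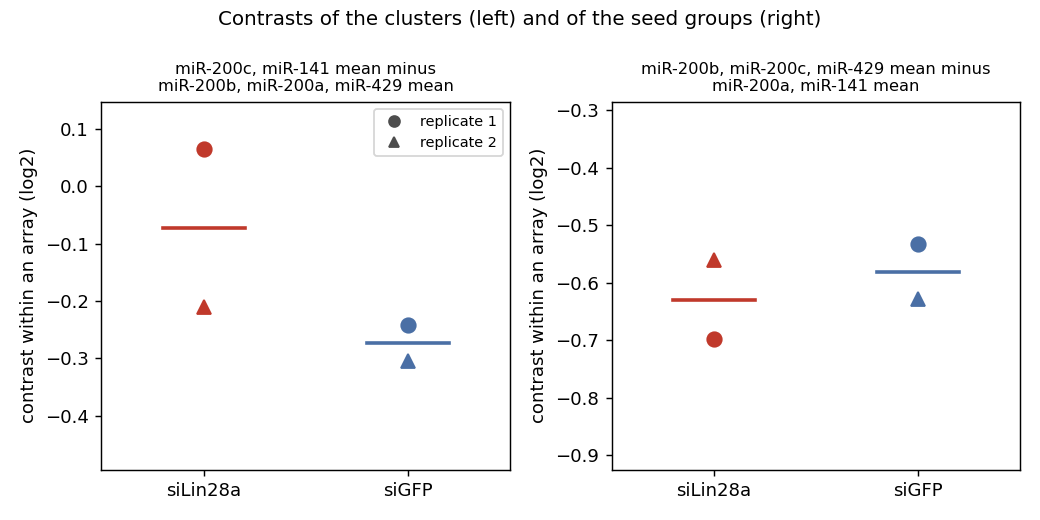
Cluster contrast (miR-200c and miR-141 minus miR-200b, miR-200a and miR-429) and seed contrast (miR-200b, miR-200c and miR-429 minus miR-200a and miR-141) on each array in log2 units, siLin28a left of siGFP, with a bar at the mean. The cluster contrast is higher in both siLin28a arrays, at 0.06 and -0.21 against -0.24 and -0.30, and the seed contrast overlaps.

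The hairpins were searched for GGAG in the RefSeq sequences, since this is the loop motif known for LIN28A. The precursors of the chromosome 6 pair and of miR-205 are shown 5′ to 3′ with GGAG in capitals.
Mir200c: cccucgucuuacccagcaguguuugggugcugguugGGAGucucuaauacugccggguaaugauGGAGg
Mir141: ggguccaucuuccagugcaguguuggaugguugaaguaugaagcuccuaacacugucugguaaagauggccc
Mir205: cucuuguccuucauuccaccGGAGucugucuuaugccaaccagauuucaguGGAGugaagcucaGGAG
Mir200c held the motif at 2 places, of which 1 lay in the 18 bases between its mature arms. Mir205 held it at 3 places, none of them in the loop, and Mir200b, Mir200a, Mir429 and Mir141 held none. Across the RefSeq table, 44.5% of 1005 mouse hairpins held GGAG somewhere, and 8.07% of the 644 with both arms listed held it in the loop. A match is a description of the letters. The differences of miR-200c, with a loop match, and of miR-141, with none, were 0.50 (SE 0.15) and 0.40 (SE 0.20). A link between the motif and the differences was not tested.

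Further miRNAs reported in earlier work to carry such a loop motif were 11 on the array, of which 7 were tested. Of these, let-7f and let-7a, guides that repress growth and stem cell genes, were called higher with siLin28a (limma adjusted p = 0.0210 for each), and 0 were called lower. They are the 2 called of all 231 tested (0.866%), both siGFP arrays were at the floor for each, and no miRNA was called with normexp, with the percentile over all probes or with only probes well above background on every array. The median difference of the 7 was 0.35, and it was 0.00 with normexp, 0.181 with the percentile over all probes and 0.536 without scaling. With normexp fitted without spots of outlying background it was 0.034. Both normexp values include the offset of 50 intensity units, which shrinks differences of dim miRNAs such as these, so they cannot show whether the difference holds. On the siGFP arrays 6 of the 7 did not stand well above background, so they passed the filter through the siLin28a arrays and could hardly come out lower. The 6 tested members of the miR-200 family and miR-205 were well above background in both groups. miR-107 differed by 0.04 (SE 0.07).

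Of 8 other epithelial miRNAs listed, 3 were tested, and all are made from the cluster of miR-183, miR-96 and miR-182, known from sensory epithelia. With limma 0 of 3 were called and 1, miR-96, had an unadjusted p below 0.05 and was lower, beside 11.3% of all tested miRNAs (26 of 231) in that direction. All 3 lay lower with siLin28a without overlap, beside 30.7% of all tested miRNAs (71 of 231), miR-96 by a difference of -0.49 (SE 0.10), miR-182 by -0.45 (SE 0.16) and miR-183 by -0.39 (SE 0.18), and their median stayed between -0.624 and -0.247 under the other scalings and background corrections. miR-203, miR-375, miR-192, miR-194 and miR-215 were not bright enough to be tested. The difference between this list and the members was not tested. Of 12 mesenchymal or fibroblast miRNAs on the array, 3 were tested and 0 called with limma (2 at an unadjusted p below 0.05, beside 24.7% of all tested miRNAs), with differences of 0.00 (SE 0.20) for miR-21, -0.35 (SE 0.08) for miR-31 and 0.10 (SE 0.03) for miR-143. miR-31 was at the floor in siLin28a replicate 1 and miR-143 in both siGFP replicates, so the floor bounds both differences and their errors.

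The tested miRNAs outside the list whose profile over the 4 arrays lay nearest the members' mean profile, by Euclidean distance of centred log2 levels, were miR-29b at 0.0778, miR-669c at 0.150, miR-29a at 0.159, miR-188-5p at 0.162 and miR-101a at 0.183. The median distance of the 225 miRNAs compared was 0.572. The members themselves lay between 0.136 and 0.246 from their own mean, to which each contributes, so these distances do not compare with those of other miRNAs. The differences between siLin28a and siGFP were 0.29 for miR-29b, 0.22 for miR-669c, 0.25 for miR-29a, 0.31 for miR-188-5p and 0.36 for miR-101a. Differences near the members' own follow from choosing by profile on the same 4 arrays. With 4 arrays, many profiles lie close together, and the order is a description.

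**Figure D5:**
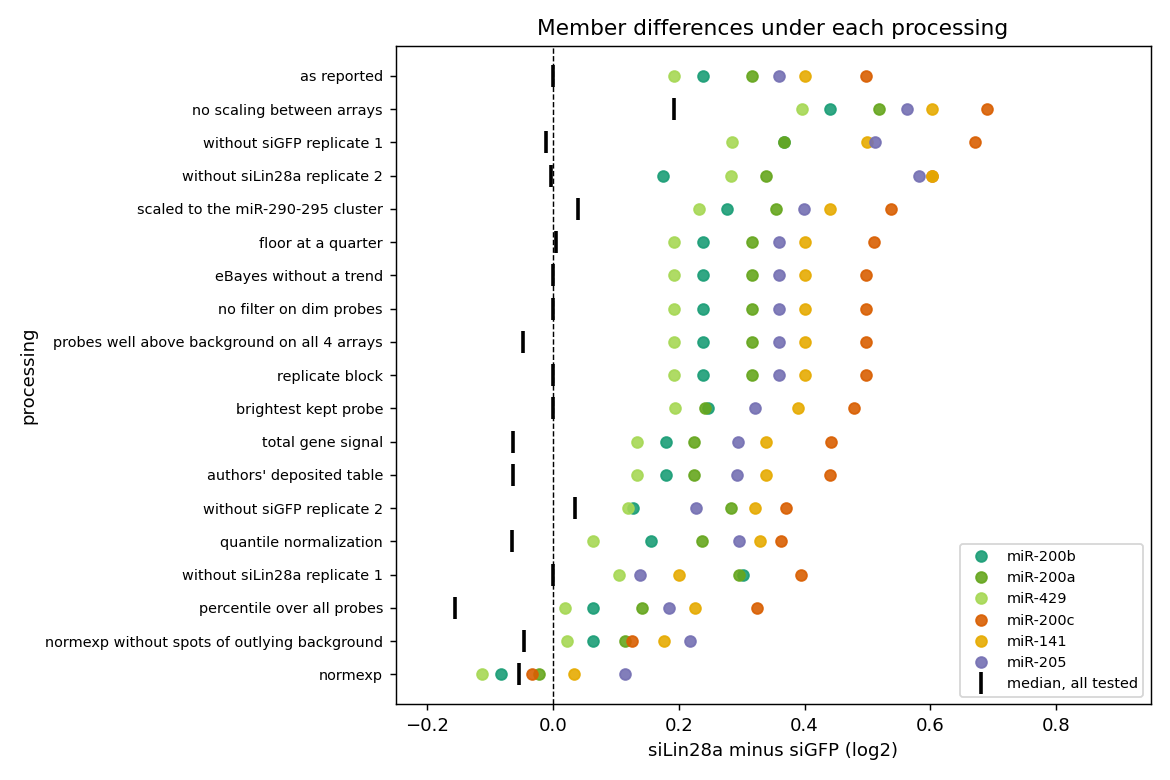
Difference between siLin28a and siGFP on the log2 scale for each tested guide strand (points) under each way of processing, with the median of all tested miRNAs as a black bar. The mean of the 6 points is 0.33 as reported, 0.54 without scaling between arrays and -0.017 with normexp, where 4 points lie below 0.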

How the data were processed

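Total RNA from 2 siLin28a and 2 siGFP replicates was labelled with Cy3 and hybridised to Agilent mouse miRNA arrays. Each scanner file, as deposited, gives linear intensity per spot. Its header names Agilent Feature Extraction 9.5.1.1 and the submitters' processing notes name 9.5.3.1; per the file headers, a fitted spatial background was subtracted. The authors' deposited table holds the total gene signal, rounded and unscaled.

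Outlier spots (3.21% to 4.32% of 11540) were left out, spots were averaged for 1712 probes, and a probe was well above background where at least 50% of its spots were. Signals were divided by each array's 75th percentile over 425 probes that passed this on every array, floored at 0.0948 and taken to log2. Probes that passed it on the 2 arrays of a group were kept (477 probes, 231 miRNAs) and averaged per miRNA. The difference between groups was fitted by limma 3.58.1, run in R 4.3.3 (eBayes with a trend, 2 residual and 1.64 prior degrees of freedom), two-sided, threshold 0.05, after tests on simulated data. The members, lists and tests were chosen with earlier results of these data known; the named miRNAs are the members, the 5 nearest profiles and up to 3 of the brightest per list, and others named are called ones or short lists given whole. Alternatives covered scaling, background (normexp with an offset of 50 intensity units), floor, filter, averaging, leaving out arrays and a replicate block. Replicate number and group both go with slide position, and nothing shows that replicate number pairs samples.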

Additional observations from a re-analysis of the deposited data

How the results depend on the processing

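The mean difference of the 6 members was 0.33 and lay between 0.239 and 0.450 when 1 array was left out. It was 0.54 without scaling, 0.16 with the percentile over all probes, -0.017 with normexp and 0.12 with normexp fitted without spots of outlying background, an alternative added after seeing the data, as was scaling to the cluster of miR-290 to miR-295. Normexp put the median probe of siGFP replicate 2 at 127, against 65.1 and 65.3 on the siLin28a arrays and 63.3 on siGFP replicate 1, and without the outlying spots at 62.7; under it miR-200a was -0.0227, miR-200b -0.0833, miR-200c -0.0334 and miR-429 -0.113. The median of all tested miRNAs moved to -0.16 with the percentile over all probes and 0.19 without scaling. Relative to that median, the members' mean was between 0.306 and 0.342 under 4 other scalings. Apart from quantile normalization and the floor, a scaling shifts all miRNAs of an array alike, so this narrow range is largely built in. The relative mean was 0.036 with normexp, 0.167 with normexp without outlying spots and 0.206 to 0.462 with 1 array left out. All values with normexp include its offset of 50 intensity units, which by arithmetic shrinks log2 differences of dim probes. The cluster contrast stayed above 0 in all 17 alternatives (0.063 to 0.337), but several of them could not test it. It is taken within each array, so a scaling could move it only through the floor or by quantile normalization. A replicate block cannot move it, and either change of the probe filter left it the same. Its lowest values came without siLin28a replicate 1 and with normexp in either form. Members higher without overlap numbered 5, beside 71 of 231 tested miRNAs. There were 6 without scaling (beside 112 of 231) or scaled to the cluster of miR-290 to miR-295 (80 of 231). Quantile normalization gave 3 (50 of 231), as did the total gene signal and the deposited table (61 of 264 for each). The percentile over all probes gave 2 (33 of 231), as did normexp without outlying spots (49 of 231), and normexp gave 0 (28 of 231). In either direction 142 miRNAs did not overlap (71 lower) and 91 with normexp (63 lower). Lower ones numbered 116 with the percentile over all probes and 25 without scaling.

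The miRNAs called numbered 2, against 8 with a lower floor, the total gene signal or the deposited table, 48 with no filter on dim probes, and 0 with normexp in either form, the percentile over all probes, or probes well above background on all 4 arrays; leaving out 1 array gave 0 to 13. Without the filter, 337 of 577 miRNAs had no spread between replicates because all their values sat at the floor, and miR-200c then had an adjusted p of 0.0172. With a replicate block, 2 miRNAs were called and the lowest adjusted p of a member was 0.0555, for miR-200c; same-numbered arrays deviated together (correlation 0.706), a hint from the data and not from the design. The opposite strands were limited by signal, being not detected or not well above background, and the floor understates miR-200c.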
